A study of Mus musculus with 16 samples.

Results

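The 10 genes described here belong to the responses that cells mount to misfolded protein, amino acid shortage and oxidative stress. Of them 7 form the ATF4 branch, namely the transcription factors Atf4, Atf3 and Ddit3, the pseudokinase gene Trib3, and the target genes Asns, Slc7a11 and Sesn2. The other 3, Hspa5, Dnajb9 and Xbp1, serve protein folding in the endoplasmic reticulum (ER). Members were taken by symbol from the annotation of the array, among 18193 genes named on it, and they were carried by 22 probe sets, the groups of short oligonucleotides that each measure a transcript. The brightest probe set of a gene by its mean over all arrays, called the kept probe set, gave the values below unless another is named: 1448135_at for Atf4, 1449363_at for Atf3, 1417516_at for Ddit3, 1426065_a_at for Trib3, 1451095_at for Asns, 1443536_at for Slc7a11, 1425139_at for Sesn2, 1416064_a_at for Hspa5, 1417191_at for Dnajb9 and 1437223_s_at for Xbp1.

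The arrays measured RNA of whole adrenal glands of C57BL/6 mouse embryos at embryonic days E15.5 and E16.5. In the knockout (KO) a Cre transgene under Sf1 control deleted floxed alleles of Dicer, the nuclease needed for the last cut in making microRNAs. Sf1 is active in steroidogenic cells, so the chromaffin, endothelial, capsular and immune cells of the gland are not cells in which the transgene is known to act. Controls were littermates without Cre, which the labels call WT, and the sources used here do not give their Dicer alleles. There were 4 groups (control and KO at E15.5, control and KO at E16.5) with 4 arrays each, and every array held the pooled glands of 1 genotype from 1 litter. The pools of a group came from separate litters, while KO and control pools of a stage came from littermates, and no pairing was used in the tests. The comparison of KO with control asks which of these stress genes change when microRNA processing is lost in Sf1 cells, and at which stage. In pooled whole glands, fewer cells of a type and less RNA per cell cannot be told apart.

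ATF4 is a transcription factor whose messenger RNA is translated when kinases such as PERK, GCN2, PKR and HRI phosphorylate the initiation factor eIF2α, so its activity is set largely by translation and less by its RNA level. It induces genes of amino acid supply and redox balance, and the factors ATF3 and CHOP (the product of Ddit3) act with or after it. The ER answers misfolded protein through 3 sensors, PERK, IRE1 and ATF6, of which IRE1 splices the Xbp1 messenger RNA and ATF6 and spliced XBP1 induce chaperones. Steroidogenic cells carry a large smooth ER, where several steps of steroid synthesis take place.

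These branches are known for different elements in DNA near the gene start, so the bases before the start are shown for 5 members: Slc7a11 and Atf3, which rose in KO, Asns, which carries the same element and did not pass, and the ER genes Hspa5 and Dnajb9. Each line gives the 250 bases before the start of transcription, 5′ to 3′ on the strand of the gene, from RefSeq on GRCm38.p6, and capitals mark a motif match on either strand. The windows are chr3:50443614-50443863 (minus strand) for Slc7a11, chr1:191183334-191183583 (minus) for Atf3, chr6:7693210-7693459 (minus) for Asns, chr2:34771840-34772089 (plus) for Hspa5 and chr12:44210069-44210318 (minus) for Dnajb9.
Slc7a11: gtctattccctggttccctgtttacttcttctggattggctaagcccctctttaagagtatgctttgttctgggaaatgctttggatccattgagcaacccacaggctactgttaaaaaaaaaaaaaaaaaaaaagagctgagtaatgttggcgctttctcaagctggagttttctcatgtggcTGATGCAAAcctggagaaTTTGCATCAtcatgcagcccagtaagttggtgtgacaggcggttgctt
Atf3: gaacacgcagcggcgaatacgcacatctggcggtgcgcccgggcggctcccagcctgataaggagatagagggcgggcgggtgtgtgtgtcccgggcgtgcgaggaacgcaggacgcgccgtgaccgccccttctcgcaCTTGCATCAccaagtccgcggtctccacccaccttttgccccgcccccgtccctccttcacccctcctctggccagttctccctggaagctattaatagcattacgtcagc
Asns: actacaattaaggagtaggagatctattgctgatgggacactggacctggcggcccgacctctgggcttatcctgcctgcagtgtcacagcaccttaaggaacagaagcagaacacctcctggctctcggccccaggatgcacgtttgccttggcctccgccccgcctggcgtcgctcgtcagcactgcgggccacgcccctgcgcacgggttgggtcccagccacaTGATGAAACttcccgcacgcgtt
Hspa5: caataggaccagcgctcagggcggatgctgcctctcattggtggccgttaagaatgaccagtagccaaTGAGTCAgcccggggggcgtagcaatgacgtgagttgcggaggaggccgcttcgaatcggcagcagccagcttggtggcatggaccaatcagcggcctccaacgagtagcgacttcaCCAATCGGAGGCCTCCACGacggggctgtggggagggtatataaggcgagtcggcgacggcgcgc
Dnajb9: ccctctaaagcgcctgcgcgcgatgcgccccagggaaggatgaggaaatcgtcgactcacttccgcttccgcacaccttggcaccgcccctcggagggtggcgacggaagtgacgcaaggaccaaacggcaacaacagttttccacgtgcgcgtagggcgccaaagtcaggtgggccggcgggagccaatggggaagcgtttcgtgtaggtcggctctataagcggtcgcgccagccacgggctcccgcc

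The search covered 300 bases, 250 before and 50 after the start, in all 10 members and in 32851 RefSeq gene starts. The C/EBP-ATF element, searched as TGATGNAAN and known to bind heterodimers of ATF4 with C/EBP factors, was found in 4 of 10 members against 3.95% of all windows. Slc7a11 held it in both orientations, from base −66 to −58 and from −48 to −40, counting −1 as the base before the start. Atf3 held it from −111 to −103, Asns from −23 to −15 and Trib3 after the start, from 13 to 21. The ER stress element (CCAAT and, after 9 bases of any kind, CCACG), known to bind NF-Y with ATF6, was found in Hspa5, from −65 to −47, against 0.119% of all windows. The AP-1 element TGACTCA was found in Ddit3 and Hspa5 against 5.2%. Neither TGACGTGG (0.676% of windows), the element of unfolded protein responses, nor the cAMP response element TGACGTCA (1.79%), which shares its first letters, was found in a member. No 2 matches overlapped. In the Slc7a11 span of RefSeq (chr3:50364936-50499087) this start lies inside a longer gene model. A match is a match of letters in the window and no measure of binding. The members were picked as known genes of these branches, so their counts are no test against all windows.

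At E15.5, 3 of the 10 genes were higher in KO at an adjusted p under 0.05 and none was lower, where 3.69% of the 13644 genes tested were higher, 2.18% were lower and 5.86% changed in either direction. At E16.5 the count was 4 of 10 higher and none lower, against 6.99% higher, 3.55% lower and 10.5% in either direction. Slc7a11, Atf3 and Dnajb9 passed at both stages, and Sesn2 passed at E16.5. The members were chosen with earlier results of these data known, so these counts are no test against the shares of all genes. The tests are those of limma, with p-values adjusted by Benjamini-Hochberg over all genes tested. The median difference of the 10 genes was 0.12 at E15.5 and 0.15 at E16.5 on the log2 scale, beside 0.07 and 0.08 over all genes tested. All 10 were tested, but Slc7a11 exceeded the filter level, the 40th percentile of all signals on the array, on 8 of 8 KO arrays and 3 of 8 control arrays, so the KO arrays alone brought it to the 4 arrays required. The other 9 were above that level on all 16 arrays.

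**Figure D1:**
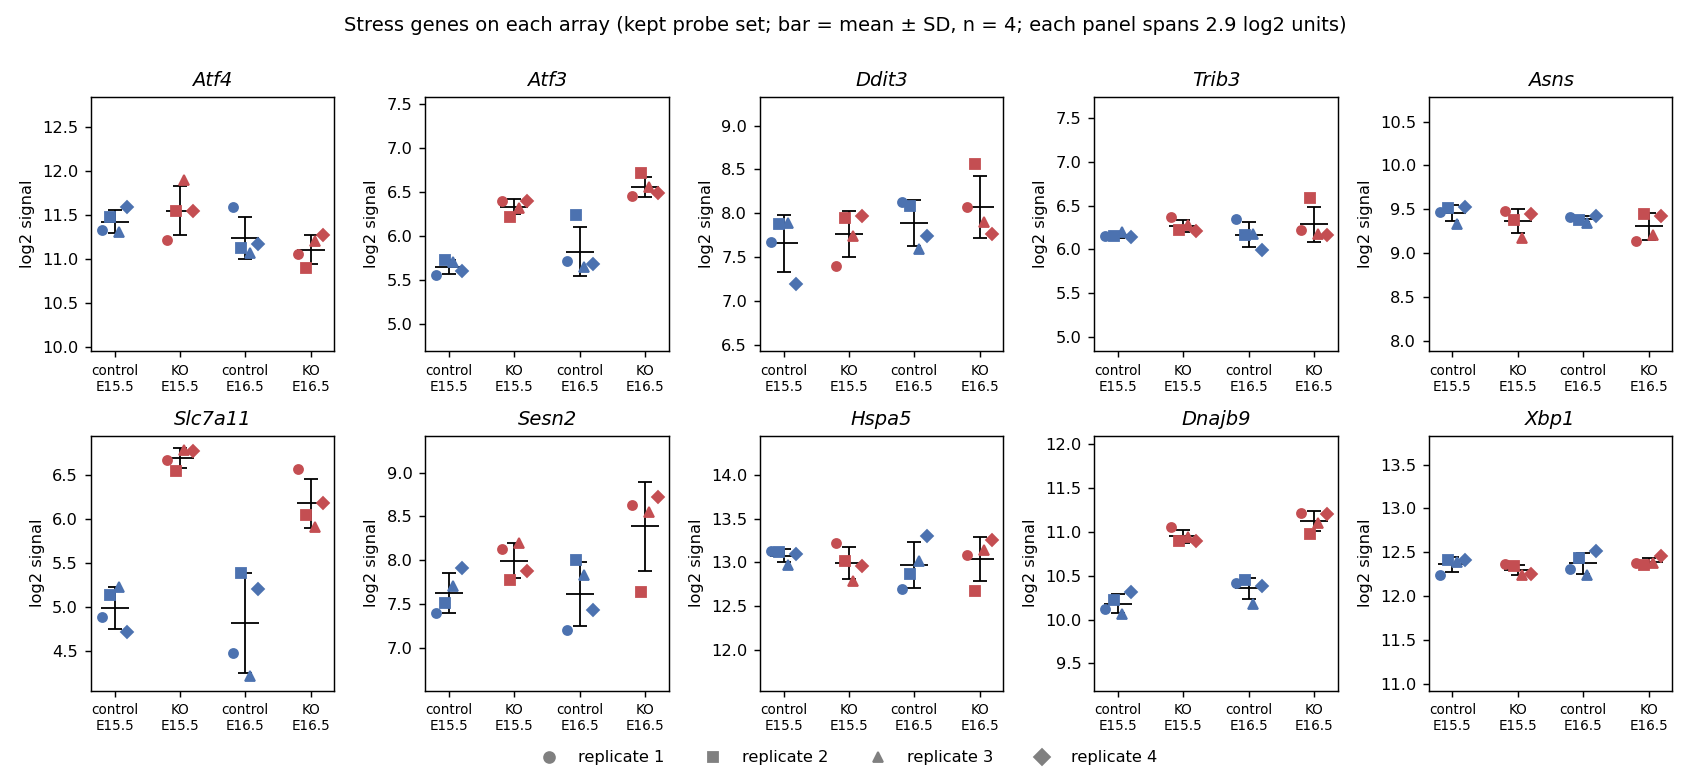
Log2 signal of the 10 stress genes on each of the 16 arrays, by group on the horizontal axis, with the mean and SD of the 4 arrays as a bar; each panel spans the same log2 range and the marker shape gives the replicate number. Slc7a11, Atf3 and Dnajb9 are higher on all KO arrays than on all control arrays at both stages, while Asns, Hspa5 and Xbp1 show groups that overlap.

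Atf4, the factor at the head of the branch, showed no difference in RNA that passed. At E15.5 its log2 signal was 11.33, 11.47, 11.31 and 11.59 on the control arrays and 11.22, 11.54, 11.90 and 11.54 on the KO arrays. At E16.5 it was 11.60, 11.12, 11.07 and 11.16 in controls and 11.05, 10.90, 11.21 and 11.27 in KO. The groups overlapped at both stages. The differences were 0.13 (95% interval −0.18 to 0.44, adjusted p = 0.729) and −0.13 (−0.44 to 0.18, adjusted p = 0.648). Since ATF4 is controlled at translation, these RNA values do not measure its protein.

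Atf3, which encodes a stress-induced factor of the same family that is also an immediate early gene, rose at both stages. At E15.5 its log2 signal was 5.56, 5.72, 5.70 and 5.60 in controls and 6.40, 6.21, 6.32 and 6.40 in KO. A day later it was 5.71, 6.24, 5.65 and 5.68 in controls and 6.45, 6.71, 6.56 and 6.49 in KO. All KO arrays were above all control arrays at each stage, and control E16.5 replicate 2 was the control nearest to them. The rise was 0.69 (SE 0.12, 1.61-fold, adjusted p = 0.00193), then 0.73 a day later (1.66-fold, adjusted p = 0.000782), and without that control array it was 0.87 at E16.5. At E15.5, 9.8% of all genes tested had KO arrays that all lay above the controls, and 10.4% did at E16.5.

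Ddit3, whose product CHOP promotes cell death under lasting ER stress, did not pass. Its log2 signal at E15.5 was 7.68, 7.88, 7.89 and 7.19 in controls and 7.40, 7.95, 7.74 and 7.97 in KO. The E16.5 arrays gave 8.13, 8.08, 7.59 and 7.74 in controls and 8.07, 8.57, 7.90 and 7.76 in KO. The arrays of each group spread over much of the range of the other group. The differences were 0.10 (95% interval −0.31 to 0.52) and 0.19 (−0.23 to 0.61), with adjusted p of 0.849 and 0.627, and the first turned to −0.05 without control E15.5 replicate 4, the lowest array.

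Trib3, a pseudokinase induced by ATF4 and CHOP that dampens ATF4 activity in return, differed by probe set. On the kept probe set the E15.5 signals were 6.15, 6.15, 6.20 and 6.14 in controls and 6.37, 6.22, 6.27 and 6.21 in KO. The KO arrays were all higher, by a difference of 0.11 (95% interval −0.11 to 0.33) that did not pass (adjusted p = 0.657). At E16.5 the signals were 6.34, 6.17, 6.18 and 5.99 in controls against 6.22, 6.59, 6.18 and 6.17 in KO, which overlapped, with a difference of 0.12 (−0.10 to 0.34, adjusted p = 0.547). The further probe set (1456225_x_at) went the other way. It measured 5.70, 5.42, 5.64 and 5.61 in controls and 4.94, 5.02, 5.21 and 5.04 in KO at E15.5. The difference was −0.54 there (SE 0.14, limma adjusted p = 0.0393), and −0.39 at E16.5 (adjusted p = 0.108). This probe set exceeded the filter level (5.11 to 5.21) on 8 of 8 control arrays and 5 of 8 KO arrays, so its KO signals lay near the floor. No direction is given for Trib3.

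Asns, asparagine synthetase and a standard readout of ATF4 activity, did not pass. At E15.5 the log2 signals were 9.47, 9.52, 9.33 and 9.53 in controls and 9.48, 9.38, 9.18 and 9.44 in KO. At E16.5 they were 9.41, 9.38, 9.35 and 9.43 in controls and 9.14, 9.44, 9.21 and 9.42 in KO. The groups overlapped at both stages. The differences were −0.09 at both stages, with 95% intervals of −0.29 to 0.11 and −0.29 to 0.12 (adjusted p = 0.693 and 0.644). A further probe set (1433966_x_at) differed by 0.07 and 0.10 (SE 0.15, adjusted p = 0.869 and 0.771), so the sign was not the same on both.

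Slc7a11 encodes the cystine importer xCT, which feeds glutathione synthesis, and is a target of NRF2 as well as of ATF4. On the kept probe sets it had the highest difference of the 10 at both stages. At E15.5 its log2 signal was 4.88, 5.13, 5.22 and 4.71 on the control arrays and 6.67, 6.55, 6.78 and 6.77 on the KO arrays. At E16.5 it was 4.47, 5.39, 4.20 and 5.20 in controls and 6.57, 6.05, 5.91 and 6.18 in KO. Every KO array lay above every control. The controls lay around the 40th percentile of the arrays (5.11 to 5.21), a dim range in which the size of a change is uncertain. The rise was 3.27-fold at E15.5 (1.71 on the log2 scale, SE 0.22, adjusted p = 0.000149) and 2.57-fold at E16.5 (1.36, adjusted p = 0.000734). A further probe set (1420413_at) exceeded the filter level on 7 of 8 KO arrays and 1 of 8 controls, so it too was tested through the KO arrays and is given as values only. It differed by 0.72 (SE 0.12) at E15.5 and by 0.26 (SE 0.12) at E16.5. With the mean of both probe sets, each tested through its KO arrays, the rise was 1.21 and 0.81, given as values only. The kept probe set too was tested through its KO arrays, and without the filter it passed at both stages (limma, adjusted p = 0.000149 and 0.000648). The KO arrays also made it the brighter probe set. Its control means were 4.986 at E15.5 and 4.815 at E16.5, against 4.928 and 4.966 on the further one. The fit without the filter kept this choice, so the size, rank and p-values of the rise depend on it. This gene, with the 2 elements shown above, and Asns, with 1, were the highest and the lowest of the ATF4 targets among the members on the kept probe sets. Atf3 and Trib3 also held 1 each and Sesn2 held none, and the number of elements was not tested against the changes.

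Sesn2, sestrin 2, a target of ATF4 and p53 that restrains mTORC1, passed at E16.5 with less margin than the other risers. At E15.5 its log2 signal was 7.40, 7.51, 7.70 and 7.91 in controls and 8.12, 7.78, 8.20 and 7.88 in KO. The difference of 0.36 (SE 0.22, adjusted p = 0.423) had a 95% interval of −0.10 to 0.83. At E16.5 the signals were 7.21, 8.01, 7.83 and 7.43 in controls and 8.63, 7.64, 8.55 and 8.72 in KO. Of the KO arrays 3 were above every control, and KO replicate 2 was below 2 of them, so the groups overlapped. The rise was 0.77 (SE 0.22, 1.70-fold, adjusted p = 0.0362), and 1.01 (adjusted p = 0.00209) without KO replicate 2. Leaving out any of 5 arrays of E16.5 (replicates 1 and 4 of the controls, replicates 1, 3 and 4 of KO) ended the call, with adjusted p from 0.0846 to 0.111, and it was kept under 4 of 10 other ways of processing. A further probe set (1451599_at) differed by −0.04 and 0.00 at the 2 stages, and the mean of both gave 0.38 (adjusted p = 0.122) at E16.5.

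Of the ER branch, Dnajb9 (ERdj4), a co-chaperone of BiP that holds IRE1 in check and is a target of spliced XBP1, rose at both stages. At E15.5 its log2 signal was 10.12, 10.22, 10.06 and 10.32 in controls and 11.06, 10.90, 10.94 and 10.90 in KO. The day after, it was 10.42, 10.45, 10.18 and 10.38 in controls and 11.22, 10.98, 11.10 and 11.21 in KO. The KO and control arrays formed separate and narrow ranges at each stage. The rise was 0.77 at both stages (SE 0.09, 1.70-fold), with adjusted p of 7.98e-05 and 4.41e-05, the smallest of the 10 genes. It passed under all 10 other ways of processing and without any 1 of the 16 arrays. Dnajb9 was measured by 1 probe set, and none of the 5 elements was found in its window.

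Hspa5, which encodes BiP, the main ER chaperone and the usual marker of an unfolded protein response, did not pass. It measured 13.13, 13.12, 12.97 and 13.10 (log2) in E15.5 controls and 13.22, 13.01, 12.78 and 12.96 in E15.5 KO. At the later stage it was 12.69, 12.86, 13.02 and 13.30 in controls and 13.09, 12.68, 13.14 and 13.26 in KO. The groups overlapped at both stages. The differences were −0.09 (95% interval −0.39 to 0.22, adjusted p = 0.827) and 0.07 (−0.23 to 0.37, adjusted p = 0.823). The 2 further probe sets lay between −0.08 and 0.11.

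Xbp1 did not pass either. Its log2 signal at E15.5 was 12.24, 12.42, 12.39 and 12.41 in controls and 12.36, 12.34, 12.24 and 12.26 in KO. The E16.5 values were 12.31, 12.43, 12.24 and 12.52 in controls and 12.38, 12.36, 12.38 and 12.45 in KO. The arrays of both genotypes shared the same range. The differences were −0.07 (95% interval −0.24 to 0.11) and 0.02 (−0.16 to 0.19), with adjusted p of 0.762 and 0.946. Of 3 further probe sets none passed, with differences from −0.16 to 0.17. The table does not say which probe sets cover the part of Xbp1 that IRE1 removes, so splicing was not measured.

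**Figure D2:**
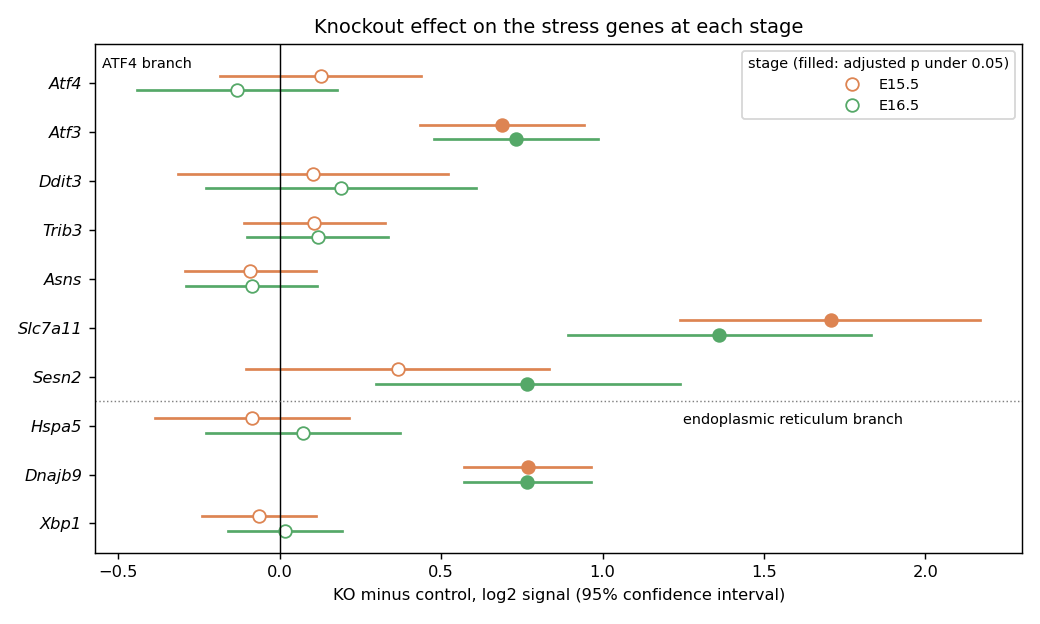
KO minus control difference in log2 signal of each gene (horizontal axis) with its 95% confidence interval, at E15.5 and E16.5; filled points passed at an adjusted p under 0.05. Slc7a11 stands at 1.71 and 1.36, Atf3 and Dnajb9 between 0.69 and 0.77, and the intervals of Atf4, Ddit3, Trib3, Asns, Hspa5 and Xbp1 include 0 at both stages.

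Probe sets of a gene were not always in accord. In a fit over 24433 probe sets, in which 5.08% changed at E15.5 and 8.17% at E16.5, 11 further probe sets of the members were tested. Of these, that of Trib3 was lower at E15.5. That of Slc7a11 entered the fit through its KO arrays, so its differences are not counted as calls. None passed at E16.5. The remaining probe set of Atf4 (1439258_at) was under the filter level on all 16 arrays. The further probe sets of Atf4, Ddit3 and Asns differed by −0.16 to 0.20. Atf3 and Dnajb9 had no further probe set to compare.

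**Figure D3:**
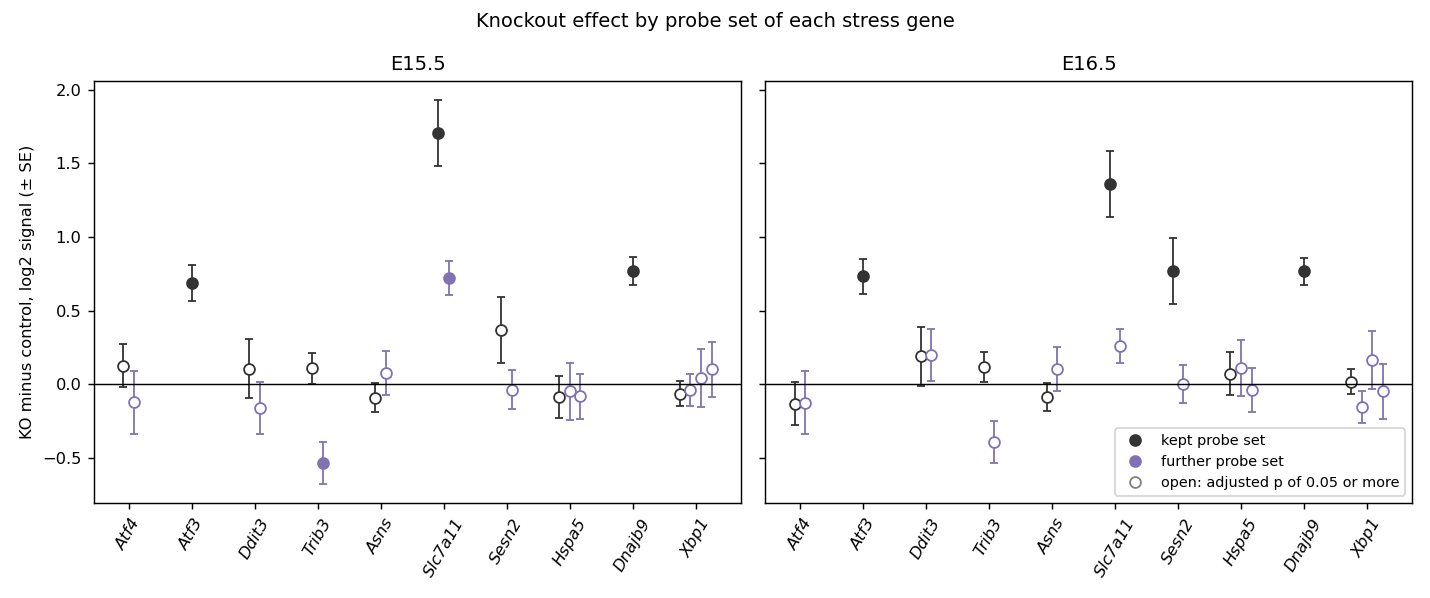
KO minus control difference in log2 signal (vertical axis, ± SE) for every tested probe set of the 10 genes, kept probe sets in black and further ones in purple, at E15.5 (left) and E16.5 (right). The probe sets of Slc7a11 are both above 0 with different sizes, those of Trib3 lie on opposite sides of 0, and those of Hspa5 and Xbp1 cluster around 0.

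The KO effect was compared between the stages by a test of the difference itself. None of the 10 genes passed, none had an unadjusted p under 0.05, and 0 of 13644 genes (0%) passed. The difference of the effects ran from −0.35 (Slc7a11, 95% interval −1.01 to 0.32) to 0.40 (Sesn2, −0.26 to 1.06), so the E16.5 call of Sesn2 does not show an effect that differs from that at E15.5. For Dnajb9 it was 0.00 (−0.28 to 0.28). The further probe set of Slc7a11, given as values only, had a difference of −0.46 (SE 0.162).

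Over the day from E15.5 to E16.5 no member passed in controls, where 0.0953% of genes changed, or in KO, where 0.901% did. At an unadjusted p under 0.05 no member stood out in controls and 2 did in KO. Atf4 was lower at E16.5 in KO by 0.44 (SE 0.15, unadjusted p = 0.0078, adjusted p = 0.244), with groups that overlapped. Slc7a11 was lower by 0.52 (SE 0.22, unadjusted p = 0.0325, adjusted p = 0.449), with KO E16.5 replicate 1 the array that reached the E15.5 range. Its further probe set measured 5.55, 5.62, 5.90 and 5.53 in KO at E15.5 and 5.37, 5.09, 5.19 and 5.26 at E16.5. The difference was −0.42 (SE 0.115). All 4 later values were below all 4 earlier ones, and they are given as values only. On kept probe sets 2.24% of genes tested showed a separation in that direction, and that of Slc7a11 overlapped. The share does not cover further probe sets.

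Within groups, genes of the ATF4 branch varied in either direction relative to each other. After subtracting group means, the correlation over 16 arrays between 2 genes of that branch had a median of −0.02 over 21 pairs, with a range of −0.66 to 0.50. Atf3 and Slc7a11 stood at 0.50, Ddit3 and Trib3 at 0.49, and Ddit3 and Sesn2 at −0.66. The 3 pairs of the ER branch ranged from 0.34 to 0.55, and Hspa5 stood at −0.75 with Trib3 and −0.70 with Ddit3. Values of a pair share the same arrays. KO E16.5 replicate 2 was farthest from its group for Ddit3, Trib3, Sesn2 and Hspa5, and its part in the correlations was not tested. Without control E16.5 replicate 2 the pairs of the ATF4 branch ranged from −0.81 to 0.61, with a median of −0.02.

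The genes whose log2 profile over the 16 arrays was most like that of Slc7a11 were Nrcam, a neural adhesion molecule (Pearson r = 0.98), Oip5os1, a noncoding RNA (0.96), and Gpr137b-ps, a pseudogene (0.94). These profiles hold the difference between genotypes. For Hspa5 they were Gpbp1 (0.93), Gnai3 (0.92) and Ecpas (0.92). These are descriptions over arrays that share the same RNA pools.

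Other targets of ATF4 were read as lists. Of 43 listed genes beside the members, 40 were tested, and 1 rose and 1 fell at E15.5, and 2 rose and 1 fell at E16.5. These counts are near the shares of all genes tested, 3.69% higher and 2.18% lower at E15.5, and 6.99% and 3.55% at E16.5. The medians were 0.03 at both stages beside 0.07 and 0.08 over all genes. Among 16 tested genes of amino acid supply, Slc7a5, the large neutral amino acid transporter LAT1, rose by 0.48 (SE 0.12, adjusted p = 0.0276) and 0.74 (adjusted p = 0.000828). Its E15.5 call ended on leaving out any of 5 arrays of that day (controls 1, 2 and 4, KO 2 and 3), with values from 0.40 to 0.50. That call was also lost with quantile normalization (0.40, adjusted p = 0.0999) and centring on the 75th percentile (0.40, 0.101). An allowance for the offset between genotypes ended it too (adjusted p = 0.225). Cth, which makes cysteine from cystathionine, differed by 0.63 (adjusted p = 0.0521) and rose by 0.59 (adjusted p = 0.0478), a call near the threshold that 13 of 16 left-out arrays ended (adjusted p up to 0.155). The serine synthesis genes Psat1 (0.50 and 0.20) and Phgdh (−0.38 and −0.35) did not pass.

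None of the 13 genes of tRNA charging and tRNA export passed at either stage (limma, with 1 lower at E15.5 and 2 lower at E16.5 at an unadjusted p under 0.05). The tRNA exporter Xpot differed by −0.23 and −0.30, and passed at E16.5 without control replicate 2 (−0.34, adjusted p = 0.0449) and with other scalings. The threonyl-tRNA synthetase gene Tars differed by −0.10 and −0.30. Of 11 tested stress effectors and partner factors Cebpb, which encodes a C/EBP factor that dimerises with ATF4, fell by 0.68 (SE 0.15, adjusted p = 0.0132) and 0.92 (adjusted p = 0.000958). Its E15.5 call was lost without control replicate 1 (−0.59, adjusted p = 0.0519), and a further probe set differed by −0.27 and −0.88 without passing. Chac1, which breaks down glutathione and responds sharply to ATF4 and CHOP, differed by −0.17 and −0.47, and Atf5 by −0.33 and −0.47, and neither passed. Atf5 did pass at E16.5 without KO E15.5 replicate 3 or control E16.5 replicate 3 (adjusted p = 0.0356 and 0.0284) and with quantile normalization (−0.56, adjusted p = 0.0334).

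The ER genes beside the members, like most genes tested, were mostly without a call. Where 3.69% and 6.99% of all genes tested were higher, 1 of 19 chaperones and folding enzymes rose at each stage, with medians of 0.01 and 0.12. This was Ero1a, the oxidase that passes electrons from disulfide bond formation to oxygen and is also induced by hypoxia, which rose by 0.58 (SE 0.10, adjusted p = 0.00126) and 0.81 (adjusted p = 3.4e-05) on its kept probe set. Its 2 further probe sets differed by −0.17 and 0.40 at E15.5 and by 0.43 and 0.44 at E16.5, and none of them passed. Creld2, an ER stress-induced folding factor, differed by 0.19 and 0.30 and passed at E16.5 without control replicate 4 (0.36, adjusted p = 0.0358). Of 15 genes of ER degradation and translocation none passed (limma, 2 lower at E15.5, and 1 higher and 1 lower at E16.5 at an unadjusted p under 0.05), and Edem2, which directs misfolded glycoproteins to degradation, differed by 0.32 and 0.47. Of 14 tested sensors, eIF2α kinases and related genes none passed (1 lower at E15.5 and 2 higher at E16.5 at that level). There Creb3l1, a membrane-bound factor, differed by 0.51 and 0.54, and Eif2ak2, the kinase PKR, by 0.12 and 0.45, which passed without KO E16.5 replicate 2 (0.61, adjusted p = 0.0120). Both further Eif2ak2 probe sets were near 0 at E16.5 (−0.01 and −0.02).

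Slc7a11, Sesn2 and Atf3 are also known targets of other stress pathways, whose other genes were read as lists. Beside their counts, 3.69% of all genes tested were higher and 2.18% lower at E15.5, and 6.99% and 3.55% at E16.5. Of 11 tested NRF2 targets, a list related to Slc7a11, none rose and Osgin1 fell, by 0.66 (adjusted p = 0.0396) and 0.81 (adjusted p = 0.0085). The E15.5 call of Osgin1 was lost on leaving out any of 7 of the 16 arrays. Hmox1, heme oxygenase, differed by 0.62 and 0.73 and did not pass. Of 11 tested p53 targets, a list related to Sesn2 and Atf3, 5 rose at E15.5: Cdkn1a (1.53), Btg2 (1.11), Eda2r (1.00), Ccng1 (0.77) and Zmat3 (0.59). At E16.5 Btg2 (1.27), Eda2r (1.03), Ccng1 (0.69) and Zmat3 (0.59) rose and Trp53inp1 fell by 0.45. That Trp53inp1 call ended on leaving out controls 2 or 4 or KO 2 or 3 of that day (adjusted p 0.0501 to 0.0769). Its further probe set was lower at E15.5 (−0.62, limma adjusted p = 0.0192) and did not pass at E16.5 (−0.42, adjusted p = 0.095). The E16.5 call of Ccng1 ended in the compared arrays alone (adjusted p = 0.0669) and with an allowance for the offset between genotypes (0.0565). Further probe sets of Ccng1 differed then by 0.94 (adjusted p = 0.0024) and 0.68 (0.289). Cdkn1a, the cell cycle inhibitor p21, differed by 1.00 (adjusted p = 0.0609) at E16.5 and passed without control replicate 2 (1.41, adjusted p = 0.000792). It also passed then with the mean of its probe sets (0.99, adjusted p = 0.00947), and its further probe set was higher (0.99, adjusted p = 0.0393). Of 11 tested immediate early genes, to which Atf3 also belongs, none passed (limma, 1 higher at E15.5 and 0 at E16.5 at an unadjusted p under 0.05), with Zfp36 at 0.29 and 0.38.

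Of 11 tested cytosolic and mitochondrial heat shock chaperones 2 fell at both stages and none rose on its kept probe set. Among all genes tested 2.18% were lower at E15.5 and 3.55% at E16.5. Hspa1a, an inducible HSP70 gene, fell by 0.94 (SE 0.13, adjusted p = 0.000312) and 1.11 (adjusted p = 3.4e-05), and Hspa1b fell by 0.84 and 0.87 (adjusted p = 0.00236 and 0.00122). These paralogs are nearly identical, so their probe sets can share transcripts and are not counted as independent. Their change was opposite in sign to that of Dnajb9. Hspa4l, another member of the HSP70 superfamily, differed by 0.26 and 0.18 on its kept probe set without passing, but 2 of its 4 further probe sets were higher at E15.5 (0.50 and 0.58, adjusted p = 0.0262 and 0.0361).

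**Figure D4:**
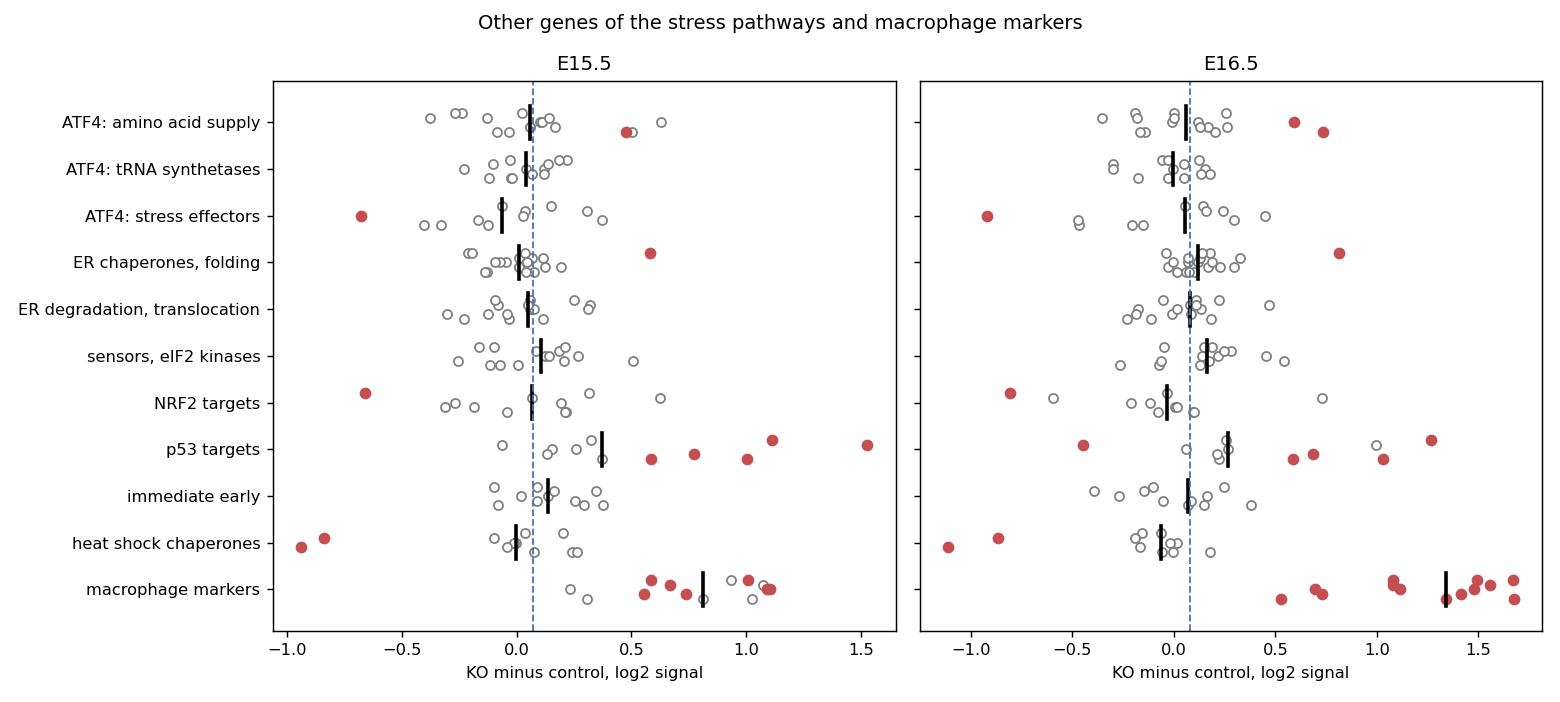
KO minus control difference in log2 signal (horizontal axis) of each tested gene in 10 stress lists and in the macrophage marker list, at E15.5 (left) and E16.5 (right); filled points passed at an adjusted p under 0.05, black bars are list medians and the dashed line is the median of all genes tested. The medians of the ATF4 and ER lists lie close to the dashed line, while those of the p53 targets (0.37 and 0.27) and of the macrophage markers (0.81 and 1.34) lie to its right.

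Other features of the arrays moved with genotype. Macrophage markers were higher in KO, 7 of 13 tested at E15.5 and 13 of 13 at E16.5, with mean log2 levels per array of 7.86 to 8.14 in controls and 8.45 to 9.03 in KO at E15.5, and 8.11 to 8.74 and 9.39 to 9.77 at E16.5. Of 10 cortex markers 3 and 5 were lower, with means per array of 12.35 to 12.81 in controls and 12.01 to 12.44 in KO at E15.5, and 12.42 to 12.74 and 11.83 to 12.23 at E16.5. Of 9 tested chromaffin markers 0 and 4 were higher, with means of 10.61 to 11.11 and 11.11 to 11.35 at E15.5, and 10.57 to 11.25 and 11.29 to 11.67 at E16.5. Schwann and capsule or mesenchyme markers had means that overlapped between genotypes at E15.5. At E16.5 they lay apart. The Schwann list was at 8.56 to 8.68 in controls and 8.80 to 9.21 in KO, with 1 of 4 tested higher. The capsule list was at 10.65 to 10.89 in controls and 11.04 to 11.22 in KO, with 1 of 9 higher. Of all genes tested 3.69% were higher at E15.5 and 6.99% at E16.5, and 2.18% and 3.55% were lower. The capsule count is near that share. The mean signal of an array was 6.35 to 6.37 in KO and 6.31 to 6.32 in controls. The part of these differences in the changes of the stress genes was not tested. Liver markers varied widely in both genotypes, from 6.16 to 10.68, with the highest mean on KO E16.5 replicate 2, the array with the lowest Sesn2 of its group. Control E16.5 replicate 2, the control with the highest Atf3 and Slc7a11 of its group, had a 3′ minus 5′ signal of control transcripts of 3.15 against 0.19 to 1.62 on the other arrays. Without it the rises at E16.5 were 1.55 for Slc7a11, 0.87 for Atf3, 0.90 for Sesn2 and 0.80 for Dnajb9, all passing. The targeted gene Dicer1 differed by −0.35 (adjusted p = 0.0638), and at E16.5 it fell by 0.36 (adjusted p = 0.0414).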

How the data were processed

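The deposited table held log2 signals of 45101 probe sets on 16 arrays, made by the authors with RMA (limma is named too), per the submitters' processing notes; versions, and whether all arrays were normalized in 1 run, are not given in the sources used here. RMA evens out intensity distributions and compresses dim signals. Values were used as deposited. Of the probe sets 34945 had 1 gene symbol, and those with several (932) or none (9160) named no gene. A gene was tested where its kept probe set lay above an array's 40th percentile on at least 4 arrays (13644 of 18193 genes). A limma 3.58.1 model (R 4.3.3) with 4 group means was fitted to all 16 arrays with eBayes, tests were two-sided, and a gene passed at a Benjamini-Hochberg adjusted p under 0.05. The fit was tested on simulated data. The median standard error of a knockout effect was 0.139 (log2), and the number of arrays limits precision. Promoter windows came from RefSeq and motifs were searched with Python 3.11.15.

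The members, lists, tests and alternatives were chosen with earlier results of these data known, and list members were named for the size of their change or because they passed. The labels number the pools without saying that a number marks a litter. Deviations of same-numbered arrays from their group means correlated at −0.39 to 0.39 at E15.5 and −0.20 to 0.45 at E16.5, so numbers were not used as pairs. Some listed genes without a named probe set were not analysed here.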

Additional observations from a re-analysis of the deposited data

Results flagged for a closer look

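Among 40 groups of 4 arrays (10 genes in 4 groups), 4 held an array whose gap to its nearest neighbour, as a share of the group's range, was past the 95% critical value of Dixon's test, which chance alone passes in about 5% of groups. Atf3 on control E16.5 replicate 2 was 6.24, against 5.65 to 5.71 on the other controls of that day. Sesn2 on KO E16.5 replicate 2 was 7.64, against 8.55 to 8.72. Trib3 on the same KO array was 6.59, against 6.17 to 6.22. Xbp1 on control E15.5 replicate 1 was 12.24, against 12.39 to 12.42. In 2 of the 4 the array was KO E16.5 replicate 2, which had the highest mean of liver markers, and for Atf3 it was the control array with the 3′ minus 5′ signal of 3.15; the part of either in these values was not tested.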

How the results depend on the processing

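Slc7a11, Atf3 and Dnajb9 passed at both stages under every alternative that tested them and without any 1 of the 16 arrays. The main filter, which most alternatives share, let Slc7a11 in through its KO arrays, so those fits do not test its entry. Without the filter Slc7a11 passed at both stages (limma, adjusted p = 0.000149 and 0.000648). That fit used the same kept probe set, the brighter one only through its KO arrays, so it does not test that choice. The stricter filter on dim probe sets left Slc7a11, Atf3 and Trib3 untested, so that 1 and 2 of the members passed under it. Leaving out 1 array gave 3 members called at E15.5 and 3 to 4 at E16.5, 588 to 1059 and 935 to 1705 genes in all, 0 to 19 over the day in controls and 53 to 175 in KO, and no member in either or in the difference between stages. Genes called at E15.5 and E16.5 numbered 800 and 1439, and 1688 and 2355 without the filter, 361 and 812 with the stricter one, 349 and 555 with an allowance for the offset between genotypes, and 1350 and 4938 with arrayWeights; at E16.5 the 8 arrays compared gave 817 alone. Over the day, the stricter filter gave 58 in KO and 7 in controls, arrayWeights 435 and 1103 with 1 member (Slc7a11, in controls) and 6 genes in the difference between stages, and the compared arrays alone 73 and 0. Quantile normalization and centring on the 75th percentile moved the split of higher to lower calls from 503 and 297 to 373 and 350 and to 276 and 372 at E15.5, and from 954 and 485 to 606 and 570 and to 447 and 609 at E16.5. The replicate block gave 710 and 1263 genes and 3 members at each stage, with Sesn2 at E16.5 no longer passing (adjusted p = 0.0944), nor Trp53inp1 (0.0725), while Cth at E15.5 (0.0439) and Chac1 (−0.47, 0.0116), Hmox1 (0.73, 0.0479) and Eif2ak2 (0.45, 0.018) at E16.5 did. Sesn2 was also lost with quantile normalization (0.68, adjusted p = 0.0617), with 75th percentile centring (0.68, 0.0663), with the allowance (0.121) and in the compared arrays alone (0.124). Signs that turned were those of differences that had not passed. With the mean of all probe sets of a gene Ddit3 at E15.5 was −0.0281, Trib3 −0.21 and −0.14, Xbp1 0.00977 and −0.00614, and Asns at E16.5 was 0.00784. With 75th percentile centring Hspa5 at E16.5 was −0.0170 and Xbp1 −0.0732. With arrayWeights Atf4 at E16.5 was 0.0823 and the difference of the Slc7a11 effect between stages 0.17. On leaving out 1 array Ddit3 at E15.5 ran from −0.0516 to 0.22, Hspa5 at E16.5 from −0.0205 to 0.19, Xbp1 from −0.0296 to 0.0620 and Psat1 from −0.0146 to 0.39. Cebpb was lost with the mean of its probe sets (−0.48, adjusted p = 0.452, and −0.90, 0.0782) and Ero1a at E15.5 (0.27, 0.434). The causes of these changes were not tested. Dim signals limit Slc7a11, whose controls lay near the floor.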
